A study of Mus musculus with 4 samples.

Results

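T48h-only peaks are regions called in the T48h rescue by ChIP-seq of HA-tagged human WDR5 (HA-hWDR5) that overlap no region called in the T12h rescue. They were chosen from the deposited peak calls of both rescues, by the absence of even 1 bp in common with a T12h peak. They number 433 of the 660 T48h peaks (65.6%, exact binomial 95% interval 61.8 to 69.2) and 433 of 1857 peaks in both lists. Each group is 1 anti-HA ChIP-seq library from day 6 embryoid bodies, 3D aggregates of mouse embryonic stem cells, called against 1 input library. Both groups share an Rx:GFP knock-in, the loss of mouse Wdr5 and a doxycycline-inducible hWDR5. They also share culture with 2% Matrigel and 5% KSR, a serum replacement, and fixation with DSG (2 µM, 30 min) and PFA (1%, 10 min). Both used 15 µg of antibody per ChIP. They differ in the time of doxycycline, T12h or T48h, and the labels do not give the event these hours are counted from. Nothing states whether the cells come from 1 clone or whether embryoid bodies were pooled, and peak lists hold no expression values against which the labelled cell type could be checked. The T48h ChIP library was the deeper, with 67116740 filtered tags against 55539917 at T12h.

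WDR5 is a WD-repeat adaptor that holds together the MLL/SET1 complexes, which methylate histone H3 at lysine 4, and it is also a subunit of the NSL acetyltransferase complex. It docks on MYC proteins, and in many cells it is found at promoters of genes for the translation machinery. In SFEBq culture, embryonic stem cells are guided towards forebrain and eye field fate, which depends on transcription factors such as RAX, SIX3, SIX6, LHX2 and PAX6.

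Sequence was at hand for start-site windows only, which run from 250 bases before to 50 bases after a RefSeq transcription start. Of the 433 T48h-only peaks, 25 (5.77%) touched such a window, and these windows held a median of 26.0 CpG dinucleotides against 7 in all listed windows. The stretches below lie before the start of 7 protein-coding genes, inside a T48h-only peak, and are shown because the words in capitals are the ones counted further on. They were read 5′ to 3′ on the gene's strand from RefSeq on GRCm38.p6, the build mm10. Capitals mark the core bound by ETS factors (CCGGAAG or its reverse complement) or, in Cdc5l, the word TCTCGCG, which is part of the element bound by the factor BANP.
Cdc5l, chr17:45433708-45433784, minus strand: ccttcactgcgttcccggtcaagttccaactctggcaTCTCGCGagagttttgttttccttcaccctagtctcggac
Polr3g, chr13:81711014-81711087, minus strand: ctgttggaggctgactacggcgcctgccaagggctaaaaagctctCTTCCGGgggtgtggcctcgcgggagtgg
Dpp8, chr9:65032384-65032457, plus strand: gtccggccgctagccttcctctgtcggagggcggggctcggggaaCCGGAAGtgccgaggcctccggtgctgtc
Aspscr1, chr11:120672920-120672972, plus strand: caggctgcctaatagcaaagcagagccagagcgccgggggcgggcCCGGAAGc
Rer1, chr4:155086354-155086441, minus strand: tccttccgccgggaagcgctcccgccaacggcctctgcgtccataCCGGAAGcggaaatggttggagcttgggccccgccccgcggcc
Ddx54, chr5:120613065-120613129, plus strand: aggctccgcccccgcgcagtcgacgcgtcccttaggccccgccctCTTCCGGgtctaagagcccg
Mrpl48, chr7:100583131-100583209, minus strand: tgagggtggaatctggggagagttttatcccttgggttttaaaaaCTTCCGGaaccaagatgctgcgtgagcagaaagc

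Peaks were placed by their summit, the base with most tags. A gene-end peak has its summit within 1 kb of either end of any RefSeq gene, an intragenic peak lies inside a gene farther than that from every end, and the rest are intergenic. Ends are those of the whole annotated span, so an intragenic peak can still lie at a listed start inside a gene. Examples are the peaks 22 bp from the listed Mrpl48 start and 106 bp from that of Smn1. Most T48h-only peaks were away from gene ends: 223 (51.5%, 46.7 to 56.3) were intergenic, 140 (32.3%, 27.9 to 37.0) intragenic and 70 (16.2%, 12.8 to 20) at gene ends. T48h peaks shared with T12h had the reverse order, with 14 of 227 intergenic (6.17%, 3.41 to 10.1), 27 intragenic (11.9%) and 186 at gene ends (81.9%). T12h-only peaks lay between, with 201 of 972 intergenic (20.7%, 18.2 to 23.4), 257 intragenic (26.4%) and 514 at gene ends (52.9%). The intervals for intergenic peaks did not meet between these 3 sets. With 1 library per rescue they cover counting error within these libraries, no test of the rescue times is possible, and weaker binding in all cells cannot be told apart from binding in fewer cells. The gene-end share of T48h-only peaks was 33.0% at a distance of 5 kb, 8.78% with protein-coding genes alone and 26.3% among the 19 peaks with a deposited false discovery rate of at most 5%.

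**Figure D1:**
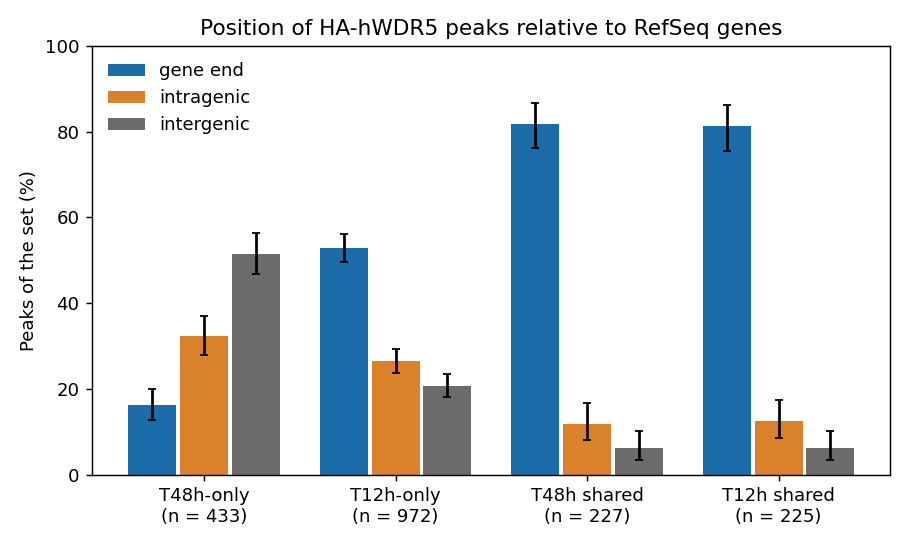
Share of peaks (%, y axis) at gene ends, inside genes and between genes for T48h-only, T12h-only and shared peaks (x axis); bars are shares and error bars exact binomial 95% intervals. The intergenic bar is the tallest for T48h-only peaks alone (51.5%), and the gene-end bar is the tallest in the other 3 sets.

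The strongest T48h-only peaks lay in or beside Mycn, Lhx2, Esrrb, Nr3c1, Six6 and Inha. The MACS score, −10 times log10 of the p-value, and the fold over the local background are the authors' own, and each tag count below is followed by its exact Poisson 95% interval, which covers counting error only. The top 5 by score lay in Mycn, Lhx2, Esrrb, Mycn again and Nr3c1, and 9 of the top 10 lay at these 4 genes, Six6 or Inha. Among the top 20 it was 11, and the other 9 lay elsewhere. These 6 genes, chosen after their values were seen, held 17 of the 433 peaks but 11 of the 19 with a false discovery rate of at most 5%. Their median fold was 11.5, against 7.14 for the other 416. As the scores come from the calls that define the set, this is a description.

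Mycn encodes N-MYC, a MYC family factor of neural and stem cells. The peak at its 3′ end (chr12:12936283-12937695) held 170 tags (145.4 to 197.6) with a fold of 9.15 and a score of 540.35, the highest of all T48h-only peaks. A second peak (chr12:12939604-12940408) had 112 tags (92.2 to 134.8) and a fold of 9.78. Their summits lay 4844 and 1794 bp after the listed Mycn start, inside a gene span of 5.74 kb, and the nearest T12h peak was at least 3568895 bp away. Of 12 genes of the MYC network (MYC proteins, their partner MAX and its other partners), Mycn alone (8.33%) had a T48h-only peak in the gene or within 1 kb of it. Over all protein-coding genes the share was 146 of 21887 (0.667%). The list was chosen with earlier results of these data known.

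Lhx2 and Six6 encode homeodomain factors of the eye field, the forebrain region that forms the retina. Lhx2 held 5 T48h-only peaks spread over 17.1 kb of its span of 30.5 kb, with folds from 6.32 to 12.15. The strongest (chr2:38368807-38369633) had 130 tags (108.6 to 154.4) and lay 766 bp from the 3′ end of Lhx2 and 126 bp before the start of the long non-coding RNA gene Gm13584. The next by score (chr2:38354365-38354905) had 62 tags (47.5 to 79.5) and lay 3186 bp from the nearer Lhx2 start. Six6 held a pair of peaks with summits 215 and 678 bp after its start. The first (chr12:72940033-72940224) had 21 tags and a fold of 13.91, and the second (chr12:72940228-72940659) 57 tags (43.2 to 73.9) and a fold of 17.03. The nearest T12h peaks were 634.8 kb from the strongest Lhx2 peak and 403.4 kb from the stronger Six6 peak.

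Esrrb encodes an orphan nuclear receptor of the naive pluripotency network. It held 3 T48h-only peaks with folds of 11.47, 9.70 and 16.25, at 0.361, 145.4 and 153.2 kb from the start of a span of 160.5 kb. Between and beyond these lay 2 shared T48h peaks, with folds of 14.15 and 13.93 at T48h against 7.86 and 5.92 at T12h. The unshared peak with a fold of 16.25 (chr12:86514209-86514625, 73 tags, 57.2 to 91.8) was only 4.15 kb from a T12h peak, so Esrrb was not free of T12h calls. The first peak counts as a gene-end peak by 2 measures, being 361 bp from the Esrrb start and 306 bp before the start of the lncRNA gene Gm40483.

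Nr3c1 encodes the glucocorticoid receptor. Its 4 T48h-only peaks lay within 6.97 kb of each other, between 3.99 and 11 kb from the lower-coordinate end of a gene span of 108.9 kb. The one with a fold of 24.74 (chr18:39415619-39415915, 59 tags, 44.9 to 76.1) had the highest fold of all T48h-only peaks. The other 3 had folds of 8.77, 13.05 and 12 and 26 to 35 tags. Inha encodes the alpha subunit of inhibin, a gonadal hormone. The strongest intergenic peak (chr1:75511454-75511937, 71 tags, 55.5 to 89.6, fold 14.01) lay 1302 bp from its nearer end and 4059 bp after its listed start.

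None of the 12 T48h-only peaks in Mycn, Lhx2, Esrrb and Six6 touched a listed start-site window of the gene that held them. These windows end 50 bases after the start, so peaks farther downstream cannot touch them. Summits in Six6 (215 and 678 bp), Esrrb (361 bp) and Lhx2 (528 bp) lay within 1 kb of a listed start of their gene. Nr3c1 had no listed start. The peaks in these genes were 171 to 1413 bp wide, the pair in Six6 almost adjoining, and tag density within them ran from 89.6 to 198.7 tags per kb. Exon positions were not used here.

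**Figure D2:**
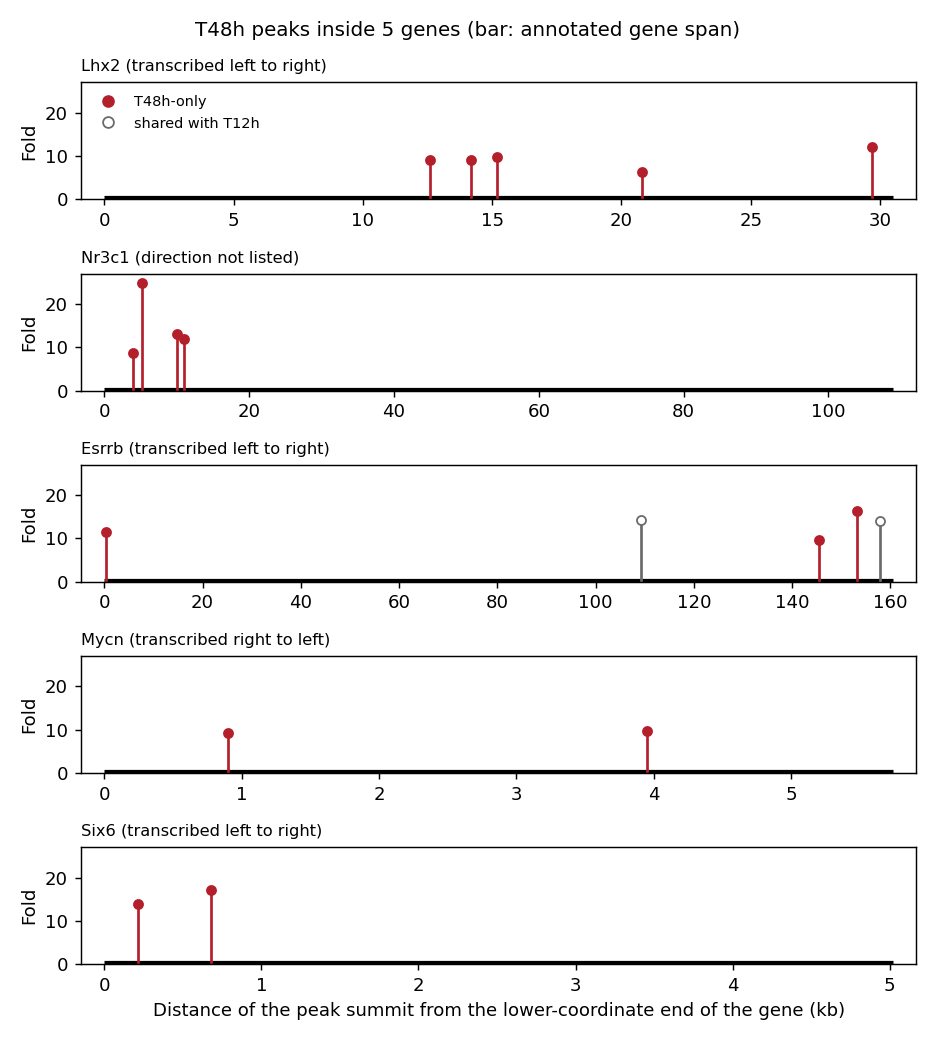
Fold over local background (y axis) of each T48h peak against its distance in kb from the lower-coordinate end of the gene (x axis, a separate scale per gene) in Lhx2, Nr3c1, Esrrb, Mycn and Six6; filled points are T48h-only, open points shared with T12h, and the black bar is the annotated span. Peaks are scattered along Lhx2 and Esrrb, while the 4 in Nr3c1 lie within 6.97 kb, and Esrrb alone holds shared peaks.

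The other gene-end peaks were weaker. Their class as a whole had a median fold of 6.28 and a median of 33.0 tags, against 9.59 and 83.0 for shared T48h gene-end peaks. A listed start lay within 1 kb of 35 of the 70 summits, a median of 177 bp from a gene end. Another 28 lay at genes with no listed start, among them ribosomal RNA genes and pseudogenes, and 7 lay within 1 kb of a gene whose listed start was elsewhere. The nearest gene was protein-coding for 33, a pseudogene for 13, a lncRNA gene for 12 and a ribosomal RNA gene for 7. By protein-coding gene, 46 of 21887 (0.210%) had a T48h-only peak within 1 kb of an end.

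Of the peaks at starts, the leading one outside the genes above lay between Clk4, a kinase of splicing factors, and BC049762 (chr11:51262773-51263263), with 52 tags (38.8 to 68.2) and a fold of 7.36. The next lay between Exosc1, a subunit of the RNA exosome, and Zdhhc16, a palmitoyltransferase gene (chr19:41933205-41933611, 39 tags, 27.7 to 53.3, fold 7.85). Other leading gene-end peaks were not at a listed start. One lay 120 bp from the end of Pgk1, a glycolytic enzyme gene whose listed start is elsewhere (chrX:106203565-106203879, 33 tags, fold 8.51). A 5S ribosomal RNA gene, n-R5s194 on chromosome 3, lay outside the large 5S array and had 33 tags in 153 bp with a fold of 11.50.

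The 25 peaks on start-site windows had folds from 3.25 to 12.2 with a median of 6.50, and 20 to 132 tags. They touched 37 windows of 31 genes, and 15 had their summit inside one. Of these peaks 6 (24.0%, 9.36 to 45.1) covered starts on both strands, against 23 of 120 shared T48h peaks on windows (19.2%). The pairs were Clk4 with BC049762, Exosc1 with Zdhhc16, Cdc5l with B230354K17Rik, Mblac2 with Polr3g, Morn1 with Rer1, and Rprd1b with Tti1. Of the genes whose sequences are shown above, CDC5L is a spliceosome component, POLR3G a subunit of RNA polymerase III, DPP8 a dipeptidyl peptidase, ASPSCR1 a tether of glucose transporter vesicles, RER1 a sorting receptor of the Golgi, DDX54 an RNA helicase and MRPL48 a mitochondrial ribosomal protein. Cry1 (fold 6.50), a repressor of the circadian clock, and Alad (5.48), an enzyme of haem synthesis, also lay under these peaks.

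Windows under T48h-only peaks were rich in GC, with a median GC content of 64.0% against 52.7% over all listed windows and 61.3% under shared T48h peaks. At least 20 CpG were present in 26 of 37 (70.3%), against 26.5% of all 32817 listed windows. Windows under the other peaks were alike in this, with 71.1% under shared T48h peaks and 74.8% under T12h-only peaks. Motifs were searched on both strands over the 300 bases, and windows of neighbouring or alternative starts overlap, so the same match can count more than once. The ETS core CCGGAAG was in 10 of the 37 windows (27%, 13.8 to 44.1), under 8 of the 25 peaks. It was in 29.5% of windows under shared T48h peaks, 19.6% of all windows with at least 20 CpG and 8.86% of all windows. The cyclic AMP response element TGACGTCA was in 6 windows (16.2%, 6.19 to 32.0) but under 3 peaks, those at Gm13584, Clk4 and Cdc5l, against 7.23% of windows under shared peaks, 3.85% with at least 20 CpG and 1.79% of all. The word TCTCGCG was in 5 windows (13.5%, 4.54 to 28.8) under 4 peaks, those at Cdc5l with B230354K17Rik, Nprl3, Cry1 and Gm40483, against 10.8% under shared peaks, 7.51% with at least 20 CpG and 2.55% of all. The GC box GGGCGG was in 67.6%, against 65.7% under shared peaks, 81.0% with at least 20 CpG and 35.6% of all. The E-box CACGTG, the word read by MYC proteins, was in 5 windows (13.5%, 4.54 to 28.8). It was in 13.9% of windows under shared peaks, 24.1% under T12h-only peaks, 11.6% with at least 20 CpG and 7.15% of all. Under T12h-only peaks the words named before it were in 20.3% (CCGGAAG), 4.35% (TGACGTCA), 10.4% (TCTCGCG) and 66.7% (GGGCGG) of windows. TATAAA was in 2 windows (5.41%, 0.661 to 18.2), against 9.64% under shared peaks, 3.66% with at least 20 CpG and 13.6% of all. CCAAT was in 37.8%, against 30.7%, 32.9% and 37.4% in the same order. A match is a word in the sequence and not a measured binding site.

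**Figure D3:**
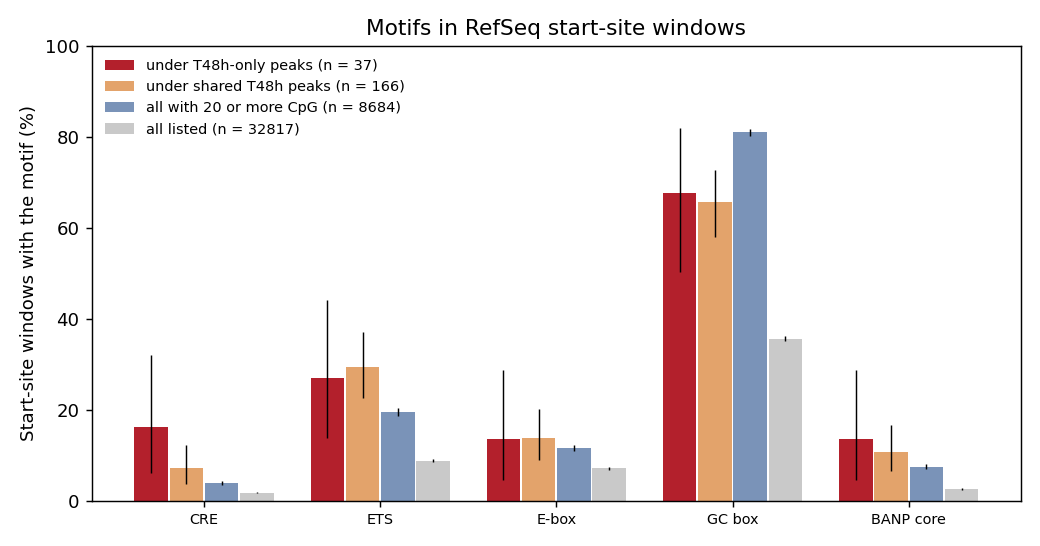
Share of start-site windows (%, y axis) that hold each of 5 motifs (x axis) under T48h-only peaks, under shared T48h peaks, in all windows with 20 or more CpG and in all listed windows; error bars are exact binomial 95% intervals. With 37 windows under T48h-only peaks the intervals are wide, and for each motif they meet the interval of shared peaks.

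A different kind of T48h-only peak was wide and low. The 27 peaks of at least 1000 bp (6.24% of the set) held 12295 of the 25401 tags in T48h-only peaks (48.4%), and their median fold was 3.56, against 7.44 for the other 406. Only the Mycn peak (fold 9.15) and one on chromosome Y (chrY:140509-141562, fold 6.43) exceeded a fold of 5 among the wide peaks. The widest were 3 intergenic peaks on chromosome 8, near pseudogenes. They were 9121 bp (chr8:20557884-20567004, 2670 tags, fold 2.69), 5738 bp (chr8:19787980-19793717, 1446 tags, fold 2.49) and 3812 bp (chr8:20131982-20135793, 1170 tags, fold 2.62). Of the wide peaks 6 lay at the array of 5S ribosomal RNA genes at 123 to 124 Mb of chromosome 8, with folds of 2.81 to 4.81. Others lay among zinc finger genes and vomeronasal receptor pseudogenes on chromosome 4, such as those in Zfp978 (3.71 and 3.83), Zfp980 (2.87), Zfp993 (3.56) and the pseudogene Vmn2r-ps17 (3.97 and 3.32).

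Some of these regions also held T12h peaks at other positions, while the Zfp978 peaks were 195.4 kb or more from any T12h peak. In the 5S window there were 6 T48h-only peaks, 8 T48h peaks in all and 17 T12h peaks. At 3 to 6 Mb of chromosome 14 there were 15 T48h-only peaks with folds of at most 5.03 and 31 T12h peaks. A pair of these 15 lay in the predicted gene Gm32966, with folds of 4.22 and 3.64. The T48h-only peaks within 1 kb of a T12h peak numbered 6, with folds of 2.81 to 5.49. One on chromosome Y (chrY:90839423-90840208, fold 3.08) was 36 bp from a T12h peak with a fold of 3.76, and one at a tRNA gene, n-TEctc8 on chromosome 1 (fold 3.56), was 151 bp from a T12h peak with a fold of 3.81. The next 3 lay near Vmn2r-ps15 (183 bp, fold 4.16), in Vmn2r-ps17 (191 bp, fold 3.97) and in the 5S array (259 bp, fold 2.81). The last was intergenic on chromosome 6 (chr6:114539775-114540312, 765 bp, fold 5.49), 56.6 kb from Hrh1. Just on the shared side, a peak near Dap3 overlapped a T12h peak by 2 bp (folds 5.58 and 6.99) and one at Kbtbd7 by 27 bp (7.74 and 8.33). Over the whole set, 363 peaks (83.8%) were farther than 100 kb from any.

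**Figure D4:**
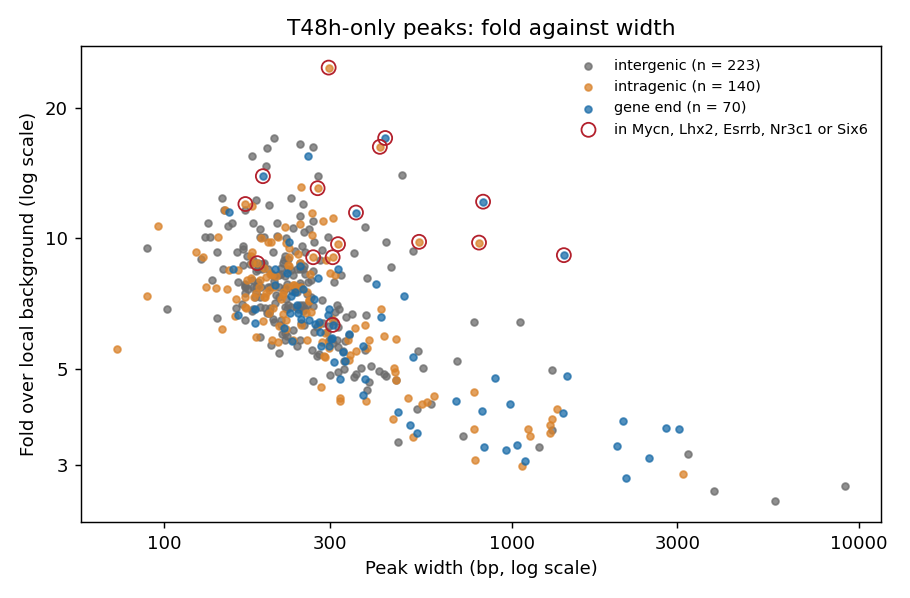
Fold over local background (y axis, log scale) against peak width in bp (x axis, log scale) for each of the 433 T48h-only peaks, coloured by position; rings mark peaks in Mycn, Lhx2, Esrrb, Nr3c1 or Six6. Peaks over 1000 bp wide lie below a fold of 5 except the Mycn peak and 1 on chromosome Y; the ring at the top is the Nr3c1 peak with a fold of 24.74.

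Intragenic T48h-only peaks had a median fold of 7.31, a median width of 244 bp and a median of 25.5 tags. Of the 140, 108 (77.1%) lay in a protein-coding gene and 26 (18.6%) in lncRNA genes alone. Their protein-coding hosts had a median span of 110.2 kb. Hosts chosen by the same rule had 36 kb for shared T48h intragenic peaks and 76.3 kb for T12h-only peaks. The median over all protein-coding genes was 17.2 kb. That value is no fair baseline, because the rule for intragenic peaks favours long genes, which hold more positions away from their ends. Differences between the peak sets were not tested. For T48h-only intragenic peaks the median distance to a gene end was 10.3 kb, against 2.63 kb for shared peaks. Pcdh15, a cadherin gene of hair cells and photoreceptors with a span of 1553.6 kb, held a pair with folds of 6.19 and 7.60. Ptprn2, a phosphatase-like gene of secretory vesicles, held a pair with folds of 7.31 and 11.12, and a lncRNA, Gm33384, held one with a fold of 13.16 (chr12:43781032-43781279, 30 tags). In Nxpe4 a peak of 354 bp had 138 tags and a fold of 6.21. A peak of 25 tags inside Ezh2, the Polycomb methyltransferase gene, had a fold of 9.83 and lay 2453 bp from a T12h peak.

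Intergenic T48h-only peaks were narrow, with a median width of 235 bp, a median of 24.0 tags and a median fold of 7.65. They lay a median of 23.5 kb from the nearest gene end, against 14.3 kb for T12h-only and 9.28 kb for the 14 shared intergenic peaks, and 72 of 223 (32.3%, 26.2 to 38.9) were farther than 50 kb, against 20.4% (15.1 to 26.6) of T12h-only ones. After Inha the strongest was on chromosome 8 (chr8:95515422-95515941, 110 tags, 90.4 to 132.6, fold 9.35), 12126 bp from the lncRNA gene 4933406B17Rik. One lay 1919 bp from Dnmt3a, the de novo DNA methyltransferase gene (chr12:3916222-3916418, 29 tags, 19.4 to 41.6, fold 16.19). Others of the leading 8 had no gene close by: chr12:93967282-93967526 (fold 16.48), chr3:40172984-40173367 (8.10), chrX:126753392-126754085 (5.22), chrY:22211091-22211317 (8.96) and chrY:54499644-54499911 (16.25). The last of these was 311.6 kb from a gene end and held 30 tags (20.2 to 42.8). Folds of 10 or more were found for 57 of the 433 T48h-only peaks, and 1 of the 57 was over 500 bp wide. Of the 57, 34 (59.6%) were intergenic, against 51.5% of all T48h-only peaks. Such folds were found for 106 of 227 shared T48h peaks and 77 of 972 T12h-only peaks.

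By chromosome, the intervals of the T48h-only and T12h-only shares lay apart on X and Y, where the T48h-only share was the larger, and on chromosome 8, where it was the smaller. The T48h-only share was also larger on chromosomes 2, 3, 4, 10, 12, 13, 15 and 18, with intervals that overlap. Chromosome X held 23 T48h-only peaks (5.31%, 3.40 to 7.86), of which 15 were intergenic, against 17 T12h-only peaks (1.75%, 1.02 to 2.79). Chromosome Y held 19 (4.39%, 2.66 to 6.77), of which 17 were intergenic, against 6 (0.617%, 0.227 to 1.34). On chromosome Y 5 of the 19 lay at 90 to 91 Mb with folds of 3.08 to 4.42, and T12h had 5 peaks there too. Chromosome 12, given for the genes it carries, held 29 (6.70%, 4.53 to 9.48) against 33 (3.40%, 2.35 to 4.74), and 7 of the 29 were the peaks in Mycn, Six6 and Esrrb, which leaves 22. Chromosome 8 held 29 (6.70%) against 118 T12h-only peaks (12.1%, 10.2 to 14.4). These shares were not tested against each other.

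**Figure D5:**
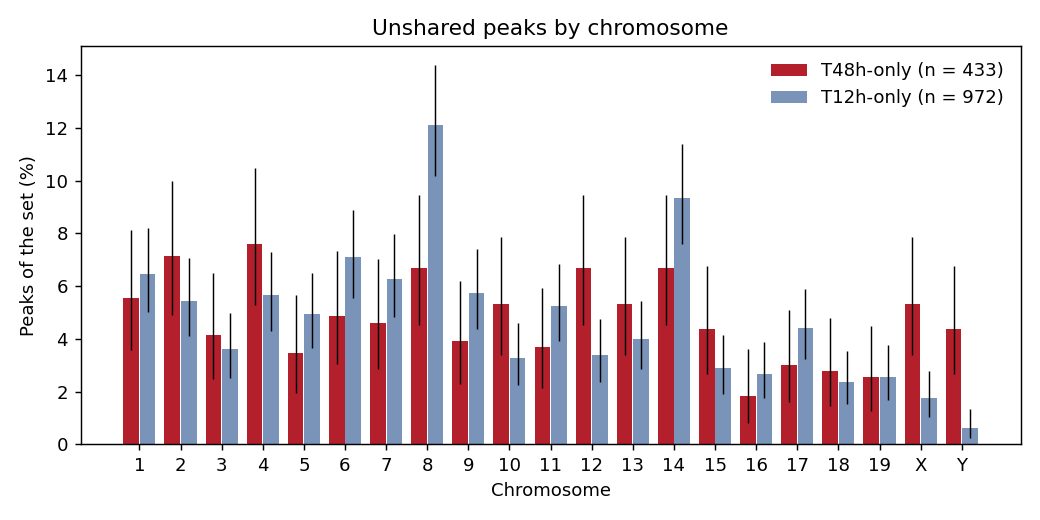
Share of T48h-only and of T12h-only peaks (%, y axis) on each chromosome (x axis), with exact binomial 95% intervals as error bars. On chromosomes X and Y the T48h-only bars (5.31% and 4.39%) stand above the T12h-only bars with intervals apart, and on chromosome 8 the T12h-only bar is the higher.

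All 15 gene lists were chosen with earlier results of these data known, so their shares are descriptions only. They were counted for a T48h-only peak inside a protein-coding gene or within 1 kb of its ends. Gene span was not matched between lists and all genes, and longer genes hold more positions for such a peak. Among all 21887 protein-coding genes, 146 had one (0.667%). Of 17 eye field genes, 2 did (Lhx2 and Six6, 11.8%). Rax, the gene that carries the GFP reporter, was not among them. Of 22 pluripotency genes it was Esrrb (4.55%), and of 4 CLK kinase genes Clk4. Of 45 nuclear receptor genes, 4 did (8.89%), namely Nr3c1, Esrrb, and Thra and Nr1d1, the thyroid hormone receptor and clock repressor genes, which share 1 peak of 20 tags (chr11:98769041-98769270, fold 6.75). This list was written with the Nr3c1 and Esrrb peaks known. Of 79 histone genes, 4 did (5.06%), and these were neighbours that share 2 peaks, H2ac7 with H2bc7 (33 tags, fold 4.74) and H2ac8 with H2bc8 (23 tags, fold 6.75). Ezh2 was the 1 of 26 Polycomb genes (3.85%). The count was 3 of 397 zinc finger genes (0.756%), near the share of all genes, and 1 of 1460 olfactory and vomeronasal receptor genes (0.0685%; Vmn2r29, fold 8.01), below it. None was found among 84 cytosolic ribosomal protein genes, 39 Hox genes, 26 genes of the WDR5 complexes, 25 heat shock and chaperone genes, 18 neural progenitor genes and 4 muscle regulator genes. Lists this short can hold none at the share over all genes (0.667%). The rule leaves out T48h peaks that overlap a T12h peak, so such genes may still hold T48h peaks.

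Most T48h-only peaks were close to the limit of detection. The score of the p cutoff is 50, and 253 of the 433 (58.4%) scored under 60. This held for 18 of the 227 shared T48h peaks (7.93%) and 348 of the 972 T12h-only peaks (35.8%). The median false discovery rate of T48h-only peaks was 12.2%, and 19 (4.39%) were at 5% or less. Among shared T48h peaks 122 (53.7%) were at 5% or less, and among T12h-only peaks 615 (63.3%), with a median of 3.12%. Like scores carried unlike rates in the 2 libraries, so the rates are not on the same scale across rescues. Intergenic T48h-only peaks had a median score of 58.3 and a median rate of 11.9%. For intergenic T12h-only peaks these were 58.7 and 6.04%. By the shares scoring under 60, comparisons of T48h-only with T12h-only peaks above set calls of unlike confidence side by side. The best T48h-only peak ranked 81 in the T48h list, and 6 were among its first 100. A typical member had 25 tags over 246 bp, and in all they held 0.0378% of the filtered T48h tags over 171.9 kb. T12h tags at these positions were not analysed here, so a T48h-only peak has no T12h call, which differs from having no T12h tags.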

How the data were processed

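HA-hWDR5 ChIP-seq and input libraries of T12h and T48h rescues were measured, 1 of each, and the 2 ChIP peak tables were used. Per the file headers, the authors called peaks with MACS 1.4.2 on each ChIP library alone against its control (p cutoff 1e-05, band width 300 bp, 1 tag kept per position, larger dataset scaled to the smaller). MACS read 124280184 ChIP tags at T48h and 90473125 at T12h before filtering. The submitters' processing notes name Bowtie2, SAMtools 1.5, HOMER 4.9.1, deepTools and mm10. The deposited tags are counts per peak, not normalised. The deposited score is −10 times log10 of the p-value, the deposited fold is a ratio to local background, and the false discovery rate was deposited in percent.

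Overlaps, distances to 49943 RefSeq genes (GRCm38.p6) and matches to 32851 start-site windows of 27025 genes were computed with Python 3.11.15, numpy 2.4.6, pandas 2.3.3 and scipy 1.17.1, and figures drawn with matplotlib 3.10.9. The window table lists no gene on chromosome 18. Overlap and position code was tested on simulated peaks. Single libraries allow no test, so intervals (exact binomial or Poisson, 95%) cover counting error only. Named are the 8 highest-scoring peaks per position class, genes with 2 or more T48h-only peaks at least 1 of them in the upper 50% of the T48h list by score, up to 4 members per gene list (15 lists) and the peaks nearest the overlap limit; others were chosen after their values were seen. The members and lists were chosen with earlier results of these data known. Alternatives varied overlap, distance, gene type, score, false discovery rate and dense windows. Sequences of peaks off the windows, exons and reads were not analysed here.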

Additional observations from a re-analysis of the deposited data

How the results depend on the processing

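Of 38 recomputed values, 23 stayed within their interval or within 1.5 times the main count and 15 moved. Keeping the upper 50% of the T48h list by score left 135 T48h-only peaks with a median fold of 8.24 and width of 284 bp. Keeping a false discovery rate of at most 5% left 19, with 26.3% at gene ends, 36.8% intergenic, a median fold of 11.5 and a width of 384 bp; fewer peaks enter by construction. A distance of 500 bp put 12% at gene ends, and 5 kb put 33.0% at gene ends, 23.6% inside genes and 43.4% between genes. With protein-coding genes alone these shares were 8.78%, 25.9% and 65.4%. Requiring 50% overlap gave 443 T48h-only peaks and removing those within 1 kb of a T12h peak 427. Lhx2, Nr3c1 and Esrrb were the genes with 3 or more T48h-only peaks under all 3 settings run. No paired analysis was possible because there is 1 library per group.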
